A study of Mus musculus with 2 samples.

Results

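The voltage-gated sodium channel genes described here are 8 of the 43346 Ensembl genes (21474 of them protein-coding) measured in the hearts of newborn mice. They were chosen by symbol and were all found by gene identifier. 5 encode pore-forming alpha subunits (Scn1a, Scn3a, Scn4a, Scn8a and Scn10a) and 3 encode beta subunits (Scn2b, Scn3b and Scn4b). Other genes of the family are not analysed here. The study sequenced total RNA from the whole hearts of 2 pups of the strain B6NCrl at 0 days of age, with no transgene, mutation or treatment given in the labels. Replicate 1 was pup 2 and replicate 2 was pup 3, both of pregnancy 1, and both carry the same donor identifier. Their sex was not collected. The hearts form 1 group (n = 2), so each comparison is between genes within the hearts or between the littermates, and no p-value is given: an exact two-sided sign-flip test of 2 samples cannot go below 0.5. The labels do not state the purpose of the series.

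A voltage-gated sodium channel is a single large alpha subunit that folds into homologous domains around a pore, and it carries the fast inward sodium current that starts the action potential in nerve and muscle. Beta subunits are small membrane proteins with an extracellular immunoglobulin-like domain that attach to the alpha subunit and shape its gating, its delivery to the membrane and cell adhesion. Scn1a, Scn3a and Scn8a are best known as neuronal channels, Scn4a as the channel of skeletal muscle, and Scn10a as a tetrodotoxin-resistant channel of pain-sensing neurons whose locus has been linked to cardiac conduction in genetic studies.

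The alpha genes share a coding exon of 92 bases that encodes part of the voltage sensor of the first domain. It is shown for 4 of them because these genes are close relatives whose reads have to be told apart. Sequences are from the GENCODE M21 transcripts of mm10, on the coding strand, 5′ to 3′. The exon of Scn3a is that of Scn3a-201 and Scn3a-202, and the exon of Scn8a is that of Scn8a-203, Scn8a-204 and Scn8a-205. Other versions of the exon are not reported here. Capitals mark bases that differ from Scn3a.

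Scn1a: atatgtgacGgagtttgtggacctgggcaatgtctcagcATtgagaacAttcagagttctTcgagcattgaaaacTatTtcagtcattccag
Scn3a: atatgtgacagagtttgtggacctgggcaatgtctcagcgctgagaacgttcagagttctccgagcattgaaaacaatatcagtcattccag
Scn8a: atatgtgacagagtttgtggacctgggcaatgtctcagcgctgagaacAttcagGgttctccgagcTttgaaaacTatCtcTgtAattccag
Scn10a: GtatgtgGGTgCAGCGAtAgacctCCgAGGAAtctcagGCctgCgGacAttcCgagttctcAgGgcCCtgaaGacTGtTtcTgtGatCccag

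On mm10 these coding exons lie at chr2:66332207-66332298 for Scn1a (minus strand), chr2:65525695-65525786 for Scn3a (minus strand), chr15:100959603-100959694 for Scn8a (plus strand) and chr9:119671521-119671612 for Scn10a (minus strand). In these versions Scn1a and Scn8a each differed from Scn3a at 7 bases (92.4% identity). Scn10a was more distant, with 35 differences and 62.0% identity.

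The deposited tables separated the reads of the 8 genes. Each count is an RSEM expected count, an estimate in which reads matching several features are shared out, and the deposited posterior SD of the gene's count, which measures how far that sharing is uncertain, was 0 for 7 of the 8 genes in each library. The exception was Scn3a, with SDs of 0.54 and 0.5 counts. No exon of the 8 genes overlaps an exon of another annotated gene, although the spans of Scn1a, Scn3a, Scn2b and Scn3b each overlap 1 other gene. The sources used here do not say whether the counting used strand, so a gene's reads cannot be told apart from those of RNA of the opposite strand.

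The libraries held 46151722 and 44707283 expected counts. All 9 cardiomyocyte markers listed were at 1 TPM or more in both pups, with Actc1, the cardiac actin, at 16411.69 and 13901.61 TPM. TPM, the length-corrected share of all transcripts, allows levels to be set between genes. The 8 sodium channel genes together took 624 and 559 counts (0.00135% and 0.00125% of each library), or 3.11 and 2.83 TPM.

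Scn10a was the most abundant of the 8 genes in both hearts and the only member to reach 1 TPM in both, the level at which a gene was called detected. In the same libraries 54.5% of protein-coding genes and 29.6% of all Ensembl genes reached that level, against 1 of these 8. The median over the 8 genes was 0.213 TPM, against 1.99 TPM over protein-coding genes and 0.025 TPM over all Ensembl genes. In RNA from a whole heart, fewer cells that make a channel and less RNA in each of those cells cannot be told apart.

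Among the alpha subunits, Scn10a (ENSMUSG00000034533.9, chr9:119608456-119719322, minus strand) stood at 1.63 and 1.48 TPM in replicates 1 and 2 (mean 1.56 ± 0.106, SD, n = 2), from 392 and 354 counts. Exact Poisson 95% intervals of these counts were 354 to 433 and 318 to 393, which overlap; such intervals cover counting error only. Scn10a alone held 62.8% and 63.3% of the counts of the 8 genes. Its level was higher than that of 47.9% of protein-coding genes, but of only 4.41% of those called detected. The deposited annotation has a single transcript of Scn10a, of 6416 bases, while GENCODE M21 lists 5, so shorter forms of the gene are not resolved in these counts.

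Scn4a (ENSMUSG00000001027.7, chr11:106318592-106353288, minus strand), the skeletal muscle alpha subunit, was at 0.38 and 0.18 TPM (0.28 ± 0.141, SD, n = 2), from 59 and 26 counts. The pups were further apart here than for Scn10a, and their Poisson intervals (44.9 to 76.1 and 17 to 38.1 counts) did not overlap. Scn3a (ENSMUSG00000057182.10, chr2:65457118-65567627, minus strand), an alpha subunit known from embryonic and neonatal brain, was at 0.17 and 0.12 TPM (0.145 ± 0.0354, SD, n = 2), from 61 and 39.89 counts. Its TPM was below that of Scn4a in both pups, although over full-length transcripts alone Scn3a stood at 0.17 and 0.11 TPM and Scn4a at 0.23 and 0.10.

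Scn1a and Scn8a were at the edge of what these libraries can show. Scn1a (ENSMUSG00000064329.9, chr2:66270778-66440840, minus strand), an alpha subunit of the central nervous system, had 4 and 3 counts, listed as 0.01 and 0.1 TPM. Scn8a (ENSMUSG00000023033.10, chr15:100869858-101045938, plus strand), the main alpha subunit of the axon initial segment and nodes of Ranvier, had 7 and 4 counts, listed as 0.07 and 0.03 TPM. For Scn1a, 3 counts, the number taken as a floor, were worth 0.00949 and 0.0954 TPM in replicates 1 and 2. Its TPM and count thus move in opposite directions between the pups, because the deposited length of the gene, an average over its estimated transcripts, was 8385.83 bases in one library and 931.67 in the other. The same 2 genes were the only members with fewer than 10 counts in either library.

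All 3 beta subunits were below 1 TPM in both pups. Scn3b (ENSMUSG00000049281.11, chr9:40269217-40291618, plus strand), whose protein associates with the alpha subunit without a covalent bond, was at 0.53 and 0.46 TPM (0.495 ± 0.0495, SD, n = 2), from 51 and 62 counts. It was the second most abundant of the 8 genes on the TPM scale. Scn2b (ENSMUSG00000070304.7, chr9:45117782-45130070, plus strand), whose protein is linked to the alpha subunit by a disulfide bond, was at 0.24 and 0.38 TPM (0.31 ± 0.099, SD, n = 2), from 36 and 55 counts. Scn4b (ENSMUSG00000046480.5, chr9:45138395-45154152, plus strand), the other disulfide-linked subunit, was at 0.08 TPM in both pups, from 14 and 15 counts. Scn2b and Scn4b are neighbours on chromosome 9, with 8.32 kb between them on the same strand, and Scn2b was higher than Scn4b in both hearts. The remaining beta subunit, Scn3b, lies 4826 kb from Scn2b.

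**Figure D1:**
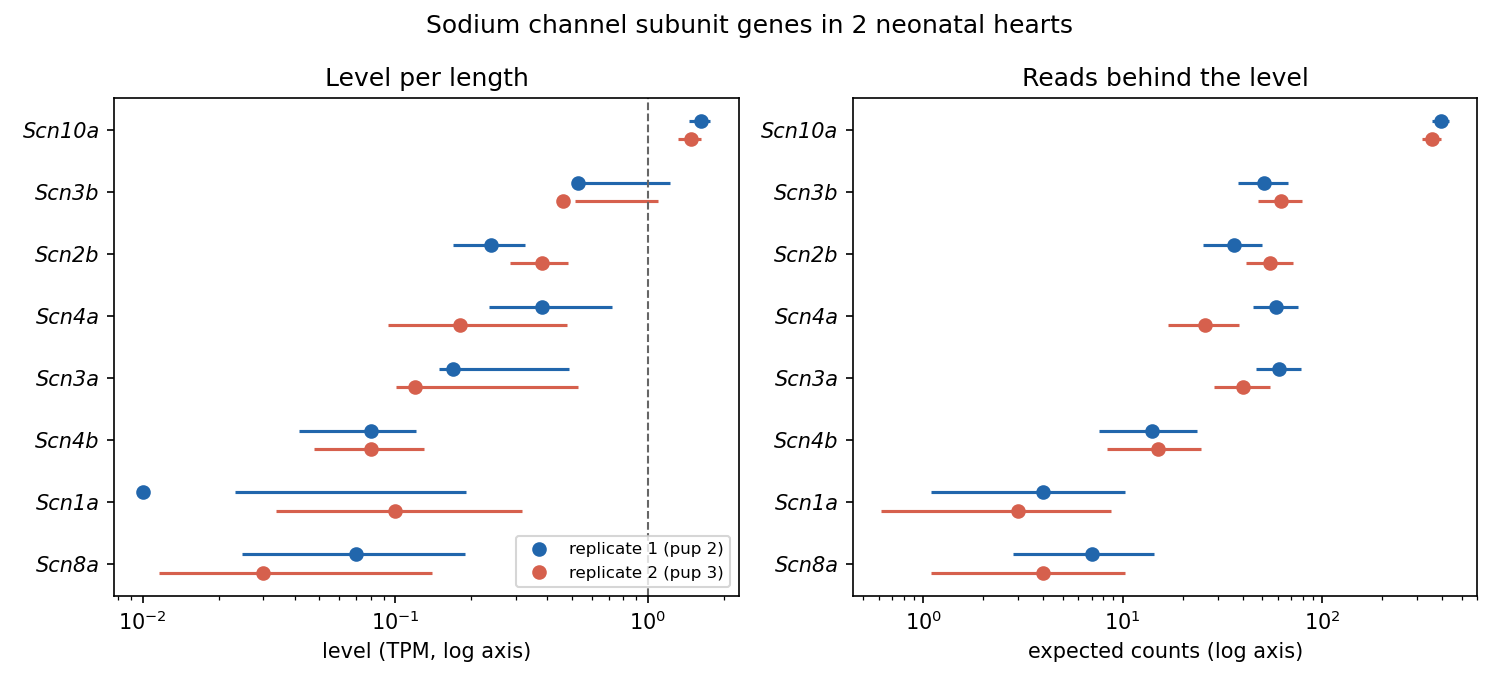
TPM with the deposited credibility intervals (left, log axis, dashed line at 1 TPM) and expected counts with exact Poisson 95% intervals (right, log axis) of the 8 genes, with 1 point for each pup. Scn10a is the only gene right of the dashed line in both pups, at 1.63 and 1.48 TPM, and Scn1a and Scn8a have between 3 and 7 counts.

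By mean TPM the order was Scn10a, Scn3b, Scn2b, Scn4a, Scn3a, Scn4b, Scn1a and Scn8a. A pair of genes was called separated where the order was the same in both pups, the mean log2 ratio of TPM + 1 exceeded the change in that ratio from pup to pup, and the deposited credibility intervals of TPM, whose width the files do not state, were apart in both pups. By this rule 11 of the 28 pairs were separated. Scn10a was separated from all 7 other genes and stood 3.14-fold above Scn3b on the mean TPM scale, or 1.88-fold by the posterior mean TPM. The interval of Scn10a was 1.45 to 1.77 TPM in replicate 1 and 1.32 to 1.62 in replicate 2, against 0.521 to 1.23 and 0.513 to 1.09 for Scn3b.

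Below Scn10a no gene was separated from its neighbour in the order. Of the 21 pairs without Scn10a, 4 were separated: Scn3b stood above Scn1a, Scn8a and Scn4b, and Scn2b stood above Scn4b. Scn3b was not separated from Scn2b, Scn4a or Scn3a, and Scn4a and Scn3a were not separated from any gene but Scn10a. Beyond these 4 pairs, the order of the genes below Scn10a is thus not resolved. The deposited TPM fell outside its own credibility interval for Scn1a in replicate 1 and for Scn3b in replicate 2. Both are genes of many transcripts, and the posterior mean TPM of Scn3b, 0.85 and 0.79, was above its TPM in both libraries.

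Between the littermates, none of the 8 genes met the rule for a difference, which asked for at least 50 counts on average and a log2 ratio of at least 1 in either direction. The ratio is that of TMM-scaled counts, replicate 2 over replicate 1, with a prior count of 2. Of the 13463 genes counted that well, 0.498% met it (67 genes), 0.163% with replicate 2 lower. Only 3 of the 8 genes, Scn10a, Scn3b and Scn3a, had the counts to be called, so a count of 0 is near the background; the other 5 could not meet the rule whatever their ratio. The 5 alpha subunits had lower scaled counts in replicate 2 and the 3 beta subunits had higher ones, while on the TPM scale Scn1a and Scn3b went the other way and Scn4b was equal. For 6 of the 8 genes the ratio was within counting error.

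Scn10a, the best counted of the 8, differed by -0.12 on the log2 scale, with a 95% counting interval from -0.33 to 0.10 before the prior count. The log2 ratio of Scn4a was -1.09, with a counting interval of the unmoderated ratio from -1.88 to -0.46 that leaves out 0. Its mean count, 42.5, was under the minimum, and of the 2857 genes averaging 20 to 100 counts, 5.11% had a log2 ratio of at least 1 in either direction. Scn3a, at -0.56, had an interval from -1.19 to 0.02. Scn2b, at 0.61, had an interval from 0.01 to 1.29, whose lower end just leaves out 0. The intervals of Scn3b (-0.25 to 0.88), Scn4b (-1.02 to 1.29), Scn1a (-3.16 to 2.18) and Scn8a (-3.00 to 1.20) held 0. The last pair had 3 to 7 counts. Scn1a could hide a difference of several fold in either direction, and Scn8a one of several fold with replicate 2 lower.

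**Figure D2:**
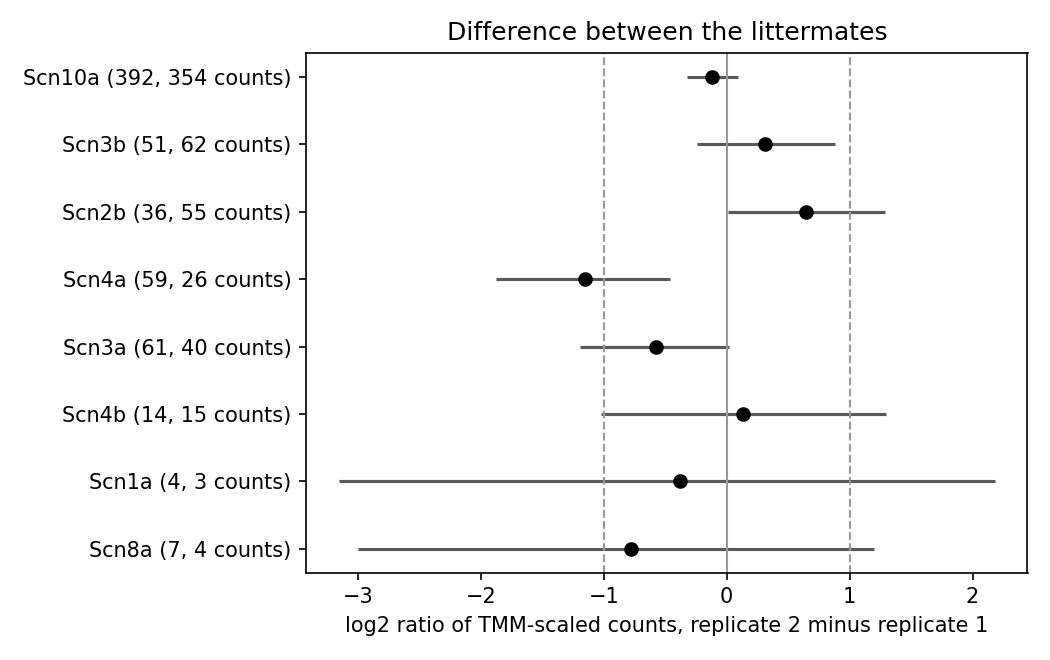
Log2 ratio of TMM-scaled counts with no prior count, replicate 2 over replicate 1, for each of the 8 genes (points), with 95% counting intervals that hold no spread between animals (lines); dashed lines mark a log2 ratio of 1 in each direction. The intervals of Scn4a and Scn2b lie to one side of 0, Scn10a has the narrowest, and those of Scn1a and Scn8a are the widest.

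Markers of other cells that express these channels were measured beside them. Over all protein-coding genes 54.5% were detected, the background for each list of markers. Of 14 skeletal muscle markers, 3 were detected, Tnni2 (6.74 and 7.17 TPM), Mylpf (3.64 and 2.03) and Tnnt3 (1.94 and 2.40), all genes of the fast muscle contractile apparatus. Pax7, a transcription factor of muscle stem cells, was at 0 counts in both pups. Among the lineage regulators Myod1 had 0 and 1 counts and Myog 13 and 10, while Myh8, a perinatal myosin, was just under the detection level at 0.97 and 0.90 TPM. The summed level of the list was 14.5 and 14.1 TPM, of which Tnni2 held the most, and Scn4a was at 0.38 and 0.18. Of the 14 markers, 6 were higher by TPM in replicate 2 and 6 were lower. The part of such cells in the Scn4a counts was not tested.

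Of 15 neuron markers, 4 were detected in both pups: Uchl1 (43.26 and 48.73 TPM), Gap43 (5.08 and 6.02), Stmn2 (2.98 and 3.67) and Dbh (1.28 and 1.27), the last an enzyme of noradrenaline synthesis. The summed level of the list was 54.5 and 64.4 TPM, of which Uchl1 held the most. On the TPM scale 13 of the 15 were higher in replicate 2 and 2 were lower. The share of all genes higher in replicate 2 was not computed. In other marker lists the number higher in replicate 2 ran from 1 of 6 (endothelial) to 5 of 6 (immune) and 10 of 12 (conduction system). Th, the rate-limiting enzyme of catecholamine synthesis, had 6 and 40 counts, and Prph, a neurofilament-type protein of peripheral neurons, had 3 and 39; both were chosen after their values were seen. On the same scale Scn2b and Scn1a were higher in that replicate, Scn4b was equal, and Scn3a, Scn4a, Scn8a, Scn10a and Scn3b were lower. By counts Scn1a (4 and 3) and Scn3b (51 and 62) went the other way, their deposited lengths differing between the libraries. Whether neurons contribute to those values was not tested. Among 10 Schwann cell and glial markers 4 were detected, among them Fabp7 (5.52 and 8.52 TPM), Mbp (3.10 and 2.83) and Erbb3 (2.37 and 2.27). The list summed to 13.7 and 16.8 TPM, but to 1373 and 1353 counts. By TPM 5 of the 10 were higher in replicate 2 and 4 were lower.

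Because Scn10a is best known from sensory neurons, 8 markers of those cells were set beside it. Calca, which encodes the neuropeptide CGRP, was the only 1 detected, at 1.28 and 1.79 TPM. Prdm12, a transcription factor of pain-sensing neurons, was at 0 counts in both pups. The other members of the list had between 0 and 12 counts in each library, and on the TPM scale 7 of the 8 markers were below Scn10a in both pups, Calca being above it in replicate 2. The 8 markers summed to 1.90 and 2.31 TPM, of which Calca held 1.28 and 1.79, against 1.63 and 1.48 TPM for Scn10a. By counts, which are not divided by length, the list held 80 and 93 against 392 and 354 for Scn10a. The part of sensory neurons in the Scn10a counts was not tested. Of 12 conduction system markers, 11 were detected (background 54.5% of protein-coding genes), led by Kcne1 (315.59 and 244.92 TPM), Gja5 (51.00 and 52.04), Irx3 (20.40 and 20.98), Smoc2 (16.37 and 21.38) and Cpne5 (5.80 and 6.26). The marker not detected was Hcn4, at 0.43 and 0.72 TPM. Shox2, a transcription factor of the sinus node, was at 1.70 and 4.21 TPM (log2 ratio of scaled counts 1.09). It was the only gene of any list that met the rule for a difference between the pups, which 0.498% of all genes averaging 50 counts or more met.

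The transcript tables divide each gene's reads among annotated transcripts. The 8 genes have 31 deposited transcripts, of which 20 had counts in at least 1 library, 9 in both and 11 in neither. Scn10a and Scn4b have 1 each. For the other 6 genes, the transcript with the largest share of TPM was the same in both pups in 4 and differed in 2. Over all genes of more than 1 transcript the share with the same main transcript was 94.4% at a mean of 5 TPM or more, 92.1% at 1 TPM or more and 65.7% below that, so 4 of 6 is near the background of genes this low. In only 1 of the 12 combinations of gene and library did the intervals of the leading transcript and the runner-up stand apart (Scn2b in replicate 2).

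Scn2b-201 held 84.7% and 100% of the TPM of Scn2b, with the rest in Scn2b-202. Both have 645 coding bases. Scn3a-201 held 75.3% and 71.2% of Scn3a, with Scn3a-202 at 24.7% and 28.8%. These transcripts have the same number of coding bases, 5841, and both are annotated with the Scn3a exon shown above. Whether reads covered that exon was not tested. The split between them is uncertain, with posterior SDs of 9.98 counts for each in replicate 1 and of 6.73 and 6.75 in replicate 2. By posterior mean share Scn3a-203, of 365 bases, led in replicate 2 with 52.9%, on a posterior mean of 0.44 counts.

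The share of TPM and the number of reads gave different pictures of Scn4a and Scn8a. Scn4a-201, the coding transcript of 6598 bases, had 57 and 25 counts, 96.6% and 96.2% of the gene's reads. Scn4a-202, a processed transcript of 443 bases that shares no base with it, had 2 and 1 counts but was assigned 39.9% and 43.0% of the gene's TPM, since each read of a short transcript weighs more. Taken alone, Scn4a-201 stood at 0.23 and 0.10 TPM. Scn8a-202, of 1072 bases and 306 coding bases, likewise held 81.5% and 73.7% of the TPM of Scn8a on 2 and 0.79 counts. Its partners Scn8a-204 and Scn8a-205 held 18.5% in replicate 1 and 26.3% in replicate 2.

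The main transcript differed between the pups for Scn1a and Scn3b. In Scn1a it was Scn1a-203, the coding transcript of 8386 bases, with 99.8% of the TPM on 3.99 counts in replicate 1, and Scn1a-206, deposited with 660 bases, with 94.9% on 1.92 counts in replicate 2, beside Scn1a-202 with 5.14% on 1.08 counts. In Scn3b it was Scn3b-201 in replicate 1 (51.7% of TPM, 42.17 counts) and Scn3b-203 in replicate 2 (86.7%, 58.75 counts), each at 0 counts in the other pup. Scn3b-201 and Scn3b-203 share 3934 bases and have the same 645 coding bases in length, with 216 bases found only in the first and 90 only in the second. The posterior means, which average over the possible ways of sharing the reads, were 13.38 and 13.72 counts for Scn3b-201 (posterior SDs 9.83 and 11.38) and 10.39 and 24.73 for Scn3b-203 (7.77 and 12.96). With SDs this large the tables do not resolve which of the transcripts was present in either heart.

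**Figure D3:**
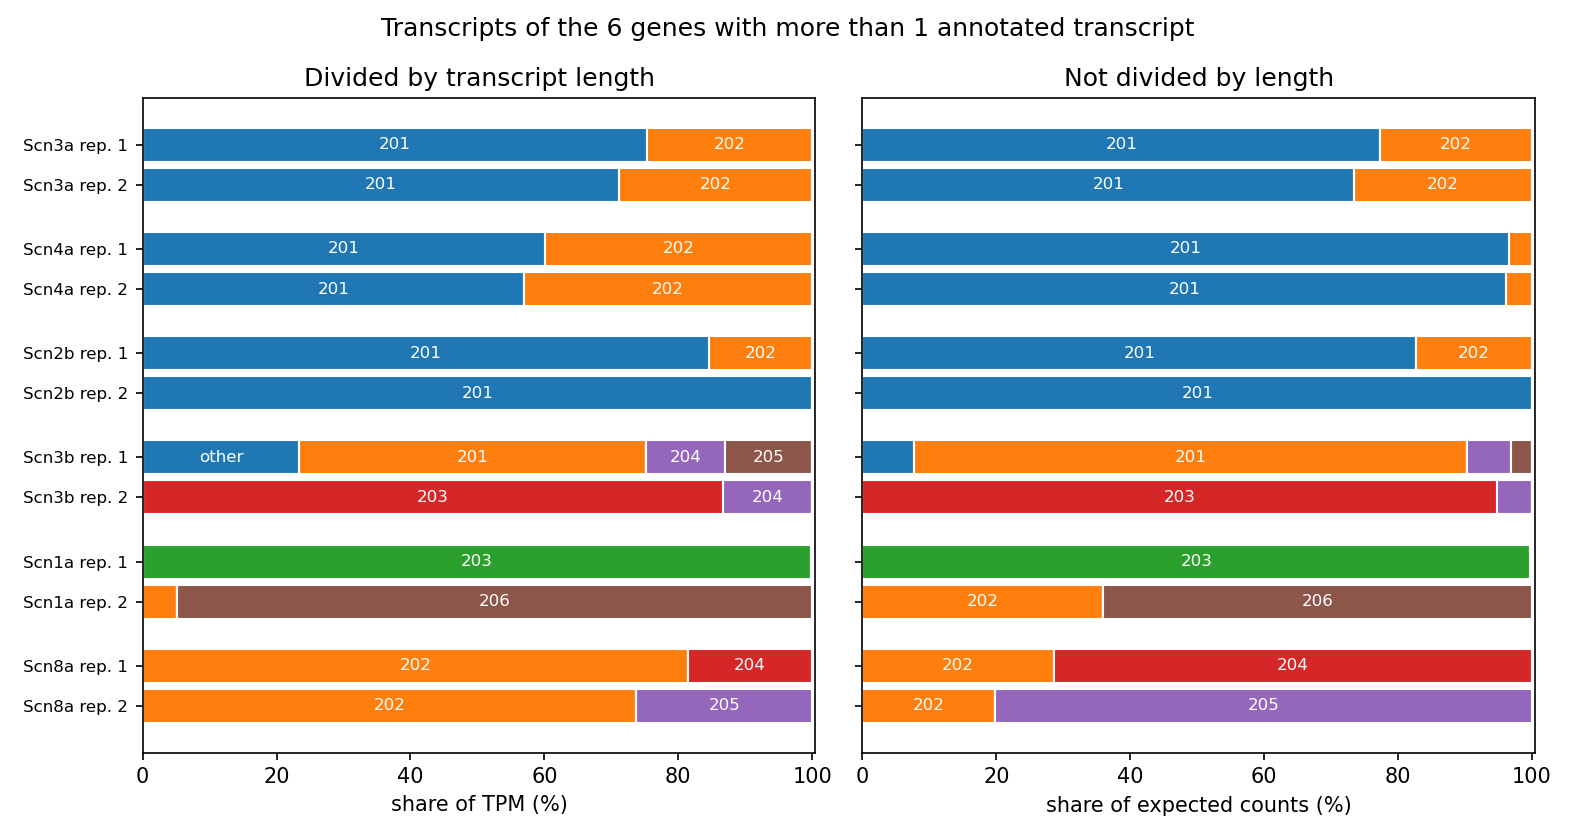
Percent of each gene's TPM (left) and of its expected counts (right) held by each transcript, as stacked bars for replicate 1 and replicate 2; bars carry the transcript number and "other" is the unmatched Scn3b transcript of 924 bases. On the TPM scale Scn3a, Scn4a, Scn8a and Scn2b have the same main transcript in both pups and Scn1a and Scn3b do not, and the short transcripts of Scn4a and Scn8a shrink on the count scale (Scn4a-202 from 39.9% to 3.39% in replicate 1).

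Other Scn3b transcripts took smaller shares: Scn3b-204, a retained intron form, 11.9% and 13.4%; Scn3b-205, a processed transcript, 13.0% in replicate 1; and a transcript of 924 bases with no match in GENCODE M21 (ENSMUST00000175949), 23.4% in replicate 1. They held 3.36 and 3.25, 1.58, and 3.89 counts in that order. These transcripts shorten the average length of Scn3b to 2633.2 bases in replicate 1, against 3688.05 in replicate 2. Its TPM was higher in replicate 1 and its count in replicate 2.

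**Figure D4:**
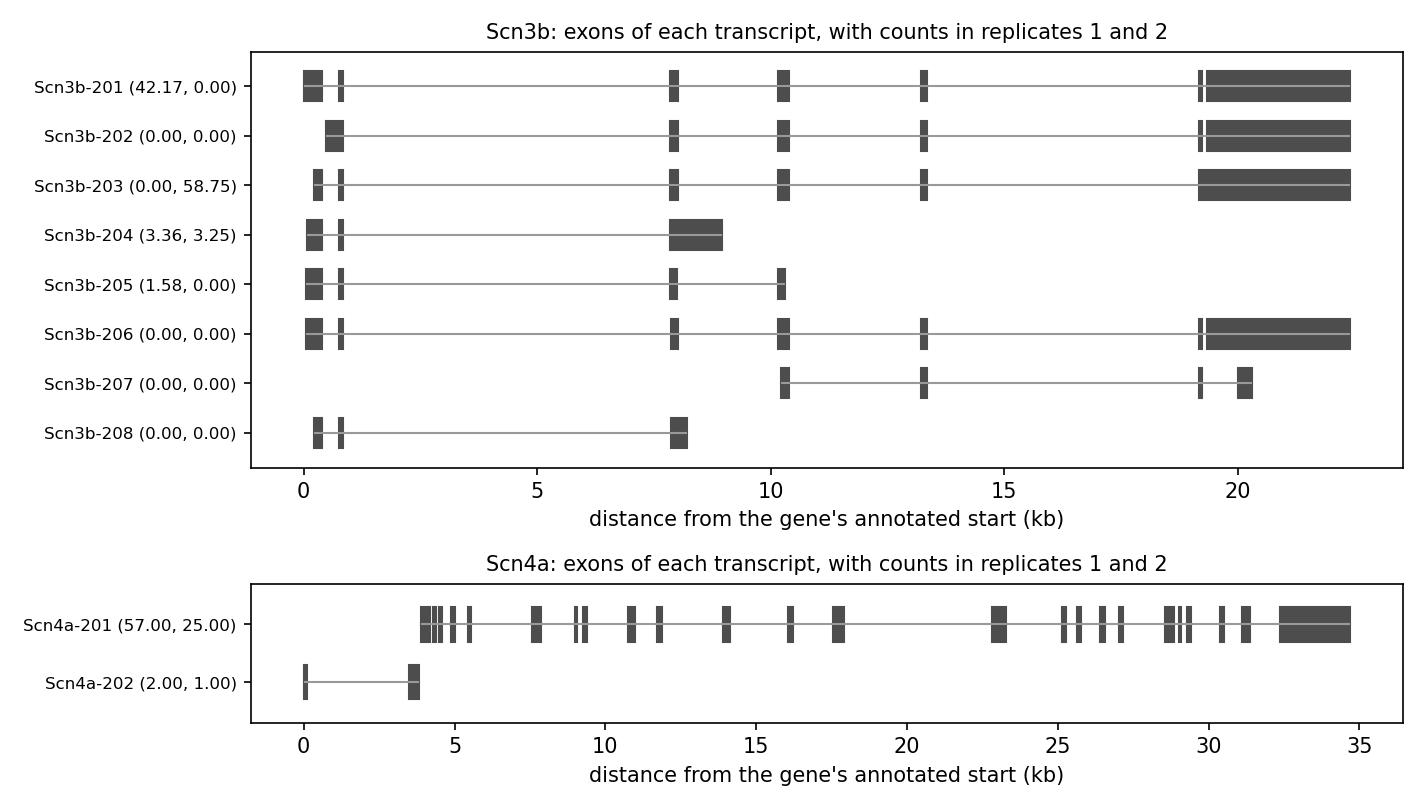
Exons (boxes) of the 8 of 9 deposited Scn3b transcripts with a GENCODE M21 model (top) and of both Scn4a transcripts (bottom), by distance from the gene's start in the direction of transcription (kb), with the expected counts of replicates 1 and 2 beside each name. Scn3b-201 (42.17 and 0 counts) and Scn3b-203 (0 and 58.75) overlap over 3934 bases, whereas Scn4a-202 ends before the first exon of Scn4a-201.

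Genes whose products work with sodium channels or share the sodium gradient were measured beside them. Of 60 such genes in 6 lists, 44 were detected in both pups (background 54.5% of protein-coding genes). The fibroblast growth factor homologous factors, which bind the tail of alpha subunits and set their inactivation, were detected in 3 of 4 cases, with a median of 5.82 TPM. Fgf13 was at 67.41 and 64.18 TPM, 42.3-fold above Scn10a, Fgf12 at 9.73 and 10.88, and Fgf14 at 1.46 and 1.20. Fgf11 was below 1 TPM in both pups. The anchoring and scaffold list had 8 of 13 detected and a median of 3.57 TPM: Cav3, the caveolin of muscle, was at 152.64 and 141.42 TPM, Sptbn1, a beta spectrin, at 91.87 and 89.25, Ank2 at 21.63 and 19.93, and Ank3, the ankyrin that places sodium channels in the membrane, at 17.58 and 17.71.

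All 14 trafficking proteins and regulators were detected, with a median of 83.0 TPM. They included the calmodulin gene Calm2 (294.64 and 320.94 TPM), Prkaca, the catalytic subunit of protein kinase A (235.45 and 229.33), Nedd4, a ubiquitin ligase (226.17 and 216.66), and Ywhah (202.79 and 217.55). All 12 genes of beta subunit processing were detected as well, with a median of 17.2 TPM, although their substrates among the 3 beta subunits were not. Psenen (101.03 and 103.62 TPM), Ncstn (51.84 and 48.38) and Aph1a (29.31 and 25.15), components of gamma-secretase, and the sheddase Adam10 (30.38 and 29.72) were the most abundant of that list.

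The sodium balance list had 7 of 8 detected and a median of 32.1 TPM. Fxyd1, a regulator of the sodium pump, was at 888.35 and 874.51 TPM, the pump subunit Atp1b1 at 234.73 and 233.04, and the sodium-calcium exchanger Slc8a1 at 47.68 and 38.78. Sodium channels that are not voltage-gated in this manner (epithelial and acid-sensing channels and the leak channel with its partners) were detected in 0 of 9 cases, with a median of 0.045 TPM. The 5 alpha subunits, by comparison, had 1 detected and a median of 0.145 TPM, and the 3 beta subunits 0 and a median of 0.31 TPM. None of the genes in the 6 lists met the rule for a difference between the pups. Of all genes averaging 50 counts or more 0.498% met it, so a count of 0 is near the background. Genes of the lists with fewer counts, such as Nrcam (9 in each library), could not meet the rule.

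**Figure D5:**
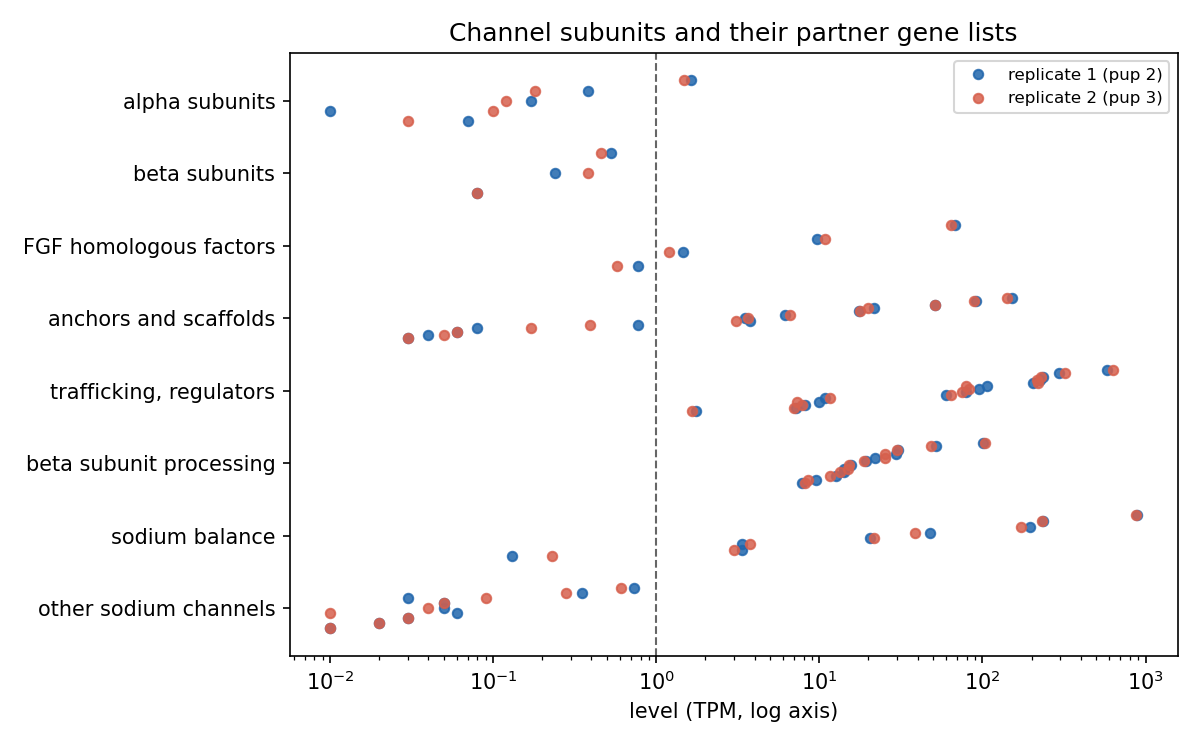
TPM of each gene in the alpha and beta subunit lists and in the 6 lists of partner and sodium-handling genes (log axis, dashed line at 1 TPM), with 1 point for each gene and pup. Of the 8 channel subunits only Scn10a lies above the line, against 44 of the 60 partner and sodium-handling genes.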

How the data were processed

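Total RNA (10 ng a library, above 200 bases, with spike-ins, per the labels) from 2 hearts was quantified by the authors, per the deposited read-me on mm10 with GENCODE M4. The sources used here name no aligner or tool version. The deposited expected counts, TPM, FPKM and percent of a gene's TPM per transcript carry RSEM column names, per the file headers; the credibility bounds are a deposited signal in TPM units. Effective length is length minus 99 bases.

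Symbols, biotypes and exon models came from GENCODE M21, matched by identifier; 23 of 31 transcripts had the same length there. Log2 ratios used edgeR 4.0.16 (R 4.3.3; TMM over 15980 genes) on expected counts rounded to whole numbers, tested on simulated data; DESeq2 1.42.0 size factors were an alternative. Intervals came from scipy 1.17.1, tables from pandas 2.3.3 and numpy 2.4.6, and figures from matplotlib 3.10.9 (Python 3.11.15). Counting intervals are exact at 95%.

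The members and lists were chosen with earlier results of these data known. All 8 members were named, with each transcript at 5% or more of its gene's TPM in either pup; from other lists, up to 5 detected genes by TPM, those at 0 counts in both pups and those that met the rule between the pups. Genes named outside it were chosen after their values were seen: Fgf11, Th, Prph, Myod1, Myog, Myh8 and Hcn4. The symbol Nalf1 had no match. Some genes that the rule picks, and the exon of some members, are not reported here. Lists of fibroblast, endothelial and immune markers had 6, 6 and 3 of 6 genes detected (background 54.5% of protein-coding genes, which the immune list was near). Expected counts are not corrected for duplicate molecules, and 3 counts were taken as the floor.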

Additional observations from a re-analysis of the deposited data

How the results depend on the processing

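Scn10a was the only gene detected at 0.5 TPM, by FPKM, by posterior mean TPM and in each pup alone, but at 2 TPM the number detected was 0, at 0.1 TPM 5, and by 10 expected counts 6. Separated pairs numbered 11 by FPKM and smaller pseudocounts, 12 by posterior mean TPM and 18 by counts not divided by length. With 1 pup left out they numbered 14 to 17 (17 without replicate 2). There the rule rests on the intervals of 1 pup alone, so the number cannot fall below 11 and does not check the full rule. The number of genes apart between the pups was 0 under other scalings and 1 (Scn4a) with no minimum count or a minimum of 20. Of all genes averaging 20 counts or more, 1.27% were apart. At an absolute log2 ratio of 0.5 the number was 1 (Scn3a), beside 3.36% of the genes averaging 50 counts or more. The median level of 0.213 TPM was 0.178 by FPKM, 0.293 by posterior mean TPM, 0.15 to 0.205 with 1 pup left out (0.15 without replicate 1) and 0.153 over full-length transcripts only, an alternative chosen after seeing the data, as were the backgrounds at counts of 20 to 100 and under 1 TPM. Genes with the same main transcript numbered 3 of 6 by counts or posterior means and 3 of 5 over coding transcripts. Ratios of TPM + 1 in place of counts gave Scn1a 0.12, Scn3b -0.07 and Scn4b 0.00; the other log2 ratios kept their sign. Detected partner genes numbered 42 to 46 against 44. The main transcript comparison needs both pups, so it was not run with either left out. No paired analysis was possible because there is only 1 group. Depth limits Scn1a and Scn8a, with under 10 counts a library, most.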
